A study of Mus musculus with 4 samples.

Results

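In all, 10 genes of glucose uptake and glycolysis were followed in ID8 cells with and without knock-down of Usp9x. They are Slc2a1, Hk1, Hk2, Pfkl, Pfkp, Aldoa, Tpi1, Pgk1, Pkm and Ldha, matched by symbol in a table of 22063 genes. They take up 11 rows of that table, since Aldoa is listed under 2 identifiers. ID8 cells are a mouse model line of ovarian cancer that arose from ovarian surface epithelium. The shCtrl cells carried a control shRNA and the shUSP9X cells shRNA against USP9X, a deubiquitinase that removes ubiquitin from other proteins. Each group has 2 libraries of poly(A) RNA. In the methods, shRNAs are delivered by lentivirus from a vector that carries puromycin resistance, which both groups would share. The sources used here do not state which shRNA sequence the sequenced cells carried or whether TGF-β1 had been added. In the methods cells grew in an ordinary CO2 incubator except in hypoxia experiments, and the sequencing is not described as one of these. The sources also do not state whether the 2 libraries of a group came from separate cultures. The 2 shUSP9X libraries carry different number codes in their labels, which could mark repeats of 1 shRNA or different shRNAs. P-values therefore measure the spread between these libraries only.

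Glycolysis turns glucose into pyruvate in the cytosol and yields ATP without oxygen. Glucose enters through transporters of the SLC2 (GLUT) family, is trapped by phosphorylation, is split into 3-carbon units, and leaves as pyruvate or, after reduction, as lactate. Many tumour cells run the pathway at a high rate even where oxygen is present. Transcription of many of its genes can be raised by the hypoxia-inducible factor HIF-1α (Hif1a) and by MYC. The paper describes HIF-1α, more than HIF-2α (Epas1), as a likely regulator of glycolysis genes. For its qPCR under hypoxia it lists PGK1 and LDHA as HIF-1α targets and GLUT1 as a target common to both factors. The comparison of shCtrl and shUSP9X bears on the study's question of how USP9X acts on hypoxia signalling.

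The libraries held 17232006 and 15611363 estimated counts in shCtrl and 19978889 and 17021261 in shUSP9X. Usp9x itself checks the labels. It had 5169 and 4453 counts in the shCtrl libraries and 390 and 346 in the shUSP9X libraries. Its log2 fold change was -3.85 ± 0.06 (SE), a 14.41-fold lower level. Of 12 markers listed for the line, 11 and 11 had more than 3 counts in the shCtrl libraries and 9 and 10 in the shUSP9X libraries. The list summed to 2660.0 and 2690.4 CPM (counts scaled to library size by edgeR's TMM method) in shCtrl and to 3088 and 3033 in shUSP9X, with Krt19 the most abundant. Several of them differed between the groups. The keratin genes Krt8 (log2 fold change 0.92 ± 0.04) and Krt18 (0.64 ± 0.04) and the uroplakin gene Upk1b (0.68 ± 0.04) rose. Krt19 had 0.12 ± 0.03, which turned to -0.15 with the GC content and length offset described below. The mesothelial genes Wt1 (-0.52 ± 0.04) and Msln (-0.47 ± 0.04) and the cadherin gene Cdh2 (-0.50 ± 0.06) fell. The count of Muc16 was 33 and 43 in the control libraries but 1 and 0 in the shUSP9X ones. Epcam had at most 6 counts and Krt7 at most 3.

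A library stood apart. The second shUSP9X library held 635 counts of the liver gene Alb, against 0 in each of the other 3 libraries. It also held 93 counts of Serpina3k and 49 of Ahsg, and the 11 liver genes looked up, chosen after their values were seen, made up 0.00569% of its counts. Of all genes, 31 had at least 10 counts there and at most 1 in every other library, against 4, 5 and 1 genes for the other libraries. The 12 leukocyte markers summed to 4.32 and 4.36 CPM in shCtrl and to 15.1 in each shUSP9X library. Cd68 was the most abundant of them, at 5.97 CPM or less, and did not pass between the groups (adjusted p = 0.125). Itgam (72 and 75 counts), Adgre1 (58 and 59), Ptprc (29 and 18) and Csf1r (17 and 13) had counts in the shUSP9X libraries and 0 in shCtrl. Lyz2 and S100a8 had 2 counts at most and Cd79a 4, and the lymphocyte genes Cd3e, Cd3g and Ncr1 were at 0 in all libraries. The 7 fibroblast markers went from 252 and 259 CPM in shCtrl to 148 and 145 in shUSP9X. Dcn, their most abundant gene, had 168 and 167 CPM against 123 and 121, and Pdgfrb and Lum were at 0. The 6 endothelial markers went from 10.4 and 11.6 CPM to 6.48 and 7.0, mostly from Tek, and Cdh5, Kdr, Emcn and Cldn5 were at 0. The 6 erythroid markers summed to 0.653 CPM at most. The part of these transcripts in the results below was not tested. Median log2 fold changes are given with and without the second shUSP9X library.

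The 10 genes did not move as a block. With edgeR's quasi-likelihood test and Benjamini-Hochberg adjustment over the 11448 genes tested, 4 rose (Hk1, Hk2, Aldoa and Pkm) and 5 fell (Pfkl, Pfkp, Tpi1, Pgk1 and Ldha) at an adjusted p under 0.05. Slc2a1 did not pass. Of all genes tested, 33.8% rose and 33.6% fell by the same rule, so calls in both directions were common. In CPM, both shUSP9X libraries lay above both shCtrl libraries for 5 genes and below for the other 5, an order that 41.2% and 41.0% of all genes tested also show. The changes were small. The median log2 fold change of the 10 was 0.01, beside 0.00 over all genes tested. At the study's cutoff, which asks for a fold change above 1.5 and an unadjusted p under 0.05, Pfkl was lower and no gene of the 10 was higher, against 18.7% lower and 10.8% higher of all genes. Pfkl missed that fold with upper quartile scaling, on both FPKM scales and without shCtrl replicate 1 (log2 fold change -0.58). At an unadjusted p under 0.05 alone, the same 4 genes were higher. Without the second shUSP9X library, the median of the 10 was 0.03. Tpi1 (log2 fold change -0.08, adjusted p = 0.217) and Ldha (-0.06, adjusted p = 0.324) no longer passed. They were lost in the same way without the first shUSP9X library.

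**Figure D1:**
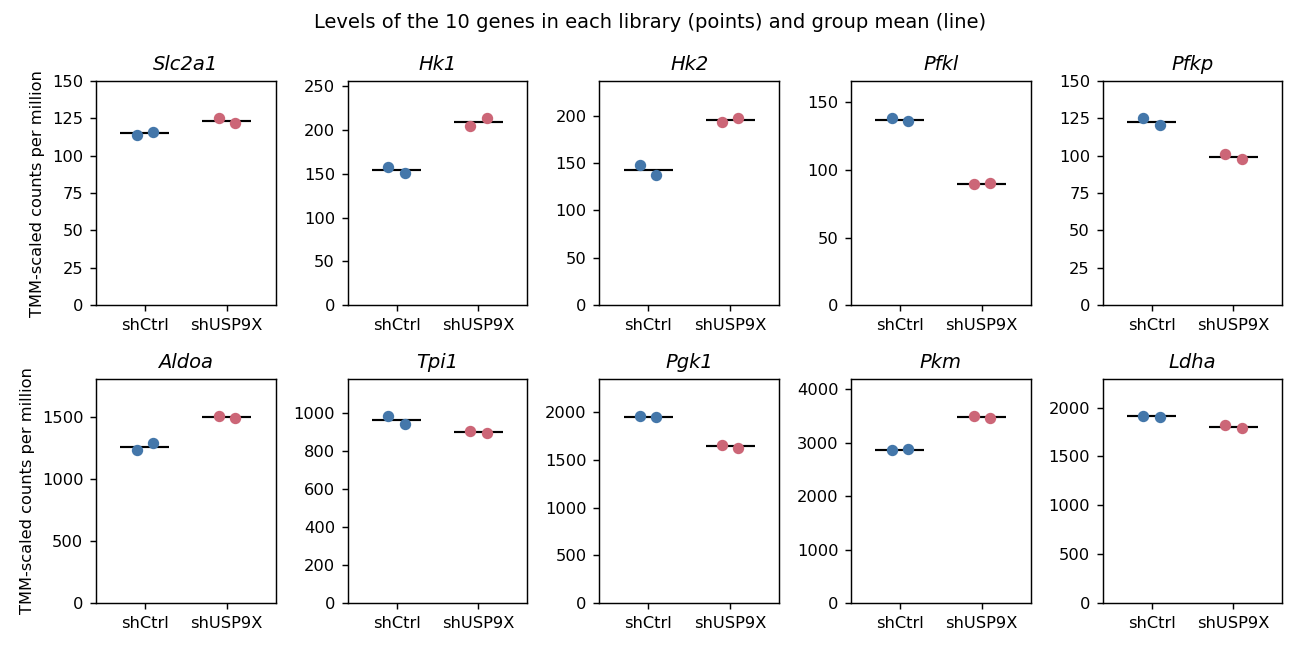
TMM-scaled CPM (vertical axes, each from 0) of the 10 genes in the 2 shCtrl and 2 shUSP9X libraries. Points are libraries and lines are group means. The libraries of a group lie close together for each gene, and the groups do not overlap, with Pfkl showing the largest fold difference (137 against 89.9 on average).

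Positions of genes below are in GRCm38. Levels between genes were compared in FPKM, which is scaled for transcript length. The 10 genes fall into an abundant and a moderate set. In shCtrl, Ldha (mean 1220.1 FPKM), Pkm (1219), Pgk1 (1080.4), Aldoa (875) and Tpi1 (609) ranked 26, 27, 37, 62 and 92 among all 22063 genes. Pfkl (45.5), Hk1 (40.7), Pfkp (38.9), Slc2a1 (37.6) and Hk2 (26.1) followed at ranks from 1885 to 3334. The libraries of Ldha and Pkm overlapped, as did those of Hk1 and Pfkp and those of Pfkp and Slc2a1. In shUSP9X the order changed at the top, where Pkm (1452 FPKM) lay above Ldha (1132), Aldoa (1032) and Pgk1 (890.2). It also changed among the moderate genes, where Hk1 led with 54.3 FPKM and Pfkl (32.9) lay below Slc2a1 (38.9) and Hk2 (35.1). Summed, the 10 genes made up 0.969 and 0.975% of a shCtrl library and 0.999 and 0.990% of a shUSP9X library.

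Slc2a1 (ENSMUSG00000028645, chr4:119108711-119137983, plus strand) encodes GLUT1, the widely expressed transporter that brings glucose into the cell. It had 36.5 and 38.6 FPKM in shCtrl and 39.8 and 38.0 in shUSP9X. The groups overlapped on this scale. In CPM they did not, with 114 and 116 against 125 and 122. Its log2 fold change was 0.10 ± 0.05 (adjusted p = 0.0754). It made up between 72.1 and 76.2% of the summed FPKM of the glucose transporters listed. Slc2a3 (GLUT3, a transporter of high affinity for glucose) rose by 0.41 ± 0.10, from 23.8 and 24.1 CPM to 29.7 and 33.8. Slc2a8 (GLUT8, found mostly inside the cell) fell by 0.56 ± 0.20 on the log2 scale, from 6.75 and 6.64 CPM to 4.25 and 4.87 (adjusted p = 0.0144). Its call was lost with DESeq2 (adjusted p = 0.148) and without shUSP9X replicate 1 (0.125) or shCtrl replicate 1 (0.0501). Slc2a4, Slc2a6, Slc2a10 and Slc2a12 were too low to test.

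The hexokinases, which phosphorylate glucose and so keep it in the cell, rose together. Hk1 (ENSMUSG00000037012, chr10:62268855-62379908, minus strand) had 158 and 151 CPM in shCtrl and 204 and 213 in shUSP9X. Hk2 (ENSMUSG00000000628, chr6:82725025-82774454, minus strand), the form often raised in tumours, had 148 and 137 against 193 and 197. Both were higher in each shUSP9X library than in either control library, as were 41.2% of all genes. The log2 fold change was 0.43 ± 0.04 for Hk1 (adjusted p = 2.8e-09) and 0.45 ± 0.05 for Hk2 (adjusted p = 2.9e-09). Adpgk, which phosphorylates glucose with ADP in place of ATP, rose by 0.55 ± 0.07. Hkdc1 had 0.50 ± 0.38 and did not pass (adjusted p = 0.252), and Hk3 was too low to test. Since the forms moved alike, their shares hardly shifted. Hk1 gave between 46.6 and 48.2% of the FPKM summed over the step, and Hk2 between 29.7 and 31.1%. The sum went from 87.1 and 84.5 FPKM in shCtrl to 114 and 119 in shUSP9X.

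Phosphofructokinase, which commits the sugar to glycolysis, was lower in all 3 of its forms, a call that 33.6% of all genes tested share. Pfkl (ENSMUSG00000020277, chr10:77986947-78010083, minus strand), the liver form, had 138 and 136 CPM in shCtrl and 89.4 and 90.4 in shUSP9X. Its log2 fold change was -0.60 ± 0.05 (adjusted p = 2.9e-11), a 1.52-fold lower level. On FPKM the fall was smaller, at -0.45 on the log2(FPKM + 1) scale. Pfkp (ENSMUSG00000021196, chr13:6579768-6648777, minus strand), the platelet form, had 125 and 120.4 CPM against 101 and 98.0, a log2 fold change of -0.30 ± 0.05. Pfkm (the muscle form) had 62.6 and 64.0 against 51.8 and 50.9, and fell by 0.30 ± 0.06 on the log2 scale. No form's groups overlapped, an order that 41.0% of all genes also show. Summed over the forms, FPKM went from 109.5 and 105 in shCtrl to 82.9 and 81.7 in shUSP9X, and Pfkl kept between 39.4 and 42.4% of the sum. The 3′ end of Pfkp overlaps Pitrm1 on the opposite strand, which had between 3131.58 and 3511.09 counts. Likewise Pfkm overlaps Senp1, also on the opposite strand, with between 1842 and 2253 counts against Pfkm's own 857 to 1085. The counting is not stated to use strand.

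**Figure D2:**
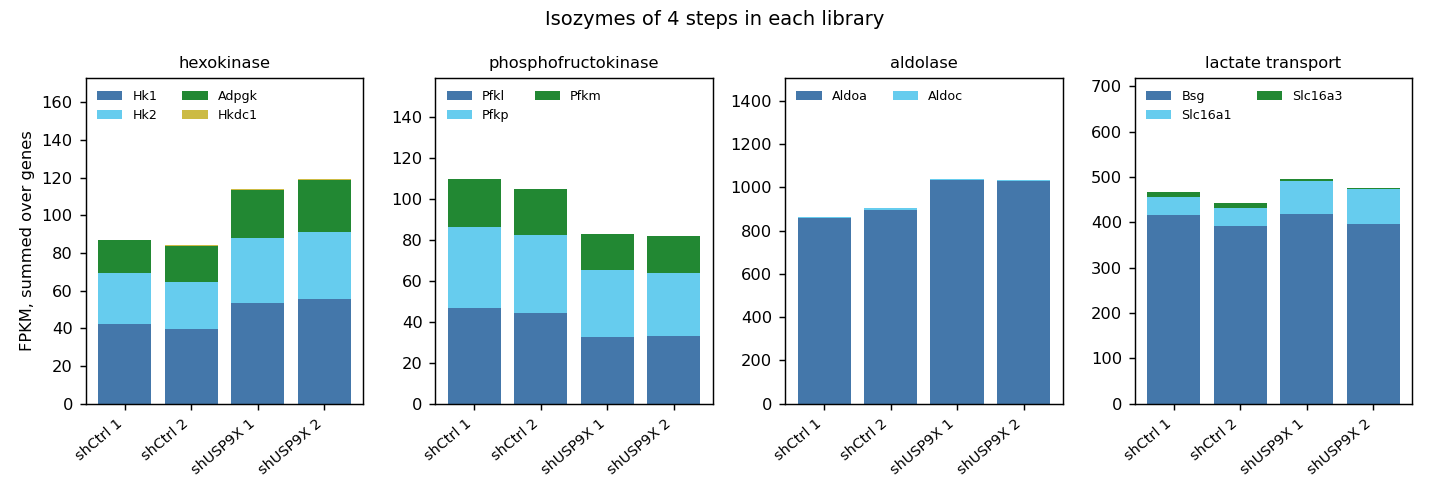
FPKM summed over the isozymes of 4 steps (vertical axes, from 0) in each library, with a colour for each gene. Bsg encodes the chaperone that lactate transporters need. Hexokinase sums are higher in shUSP9X (114 and 119 against 87.1 and 84.5) and phosphofructokinase sums lower (82.9 and 81.7 against 109.5 and 105).

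Of the enzymes that split and rearrange the sugar, aldolase was higher and triosephosphate isomerase lower in the counts, each by a small amount. Aldoa (ENSMUSG00000030695, chr7:126795234-126800751, minus strand) had 1231 and 1287 CPM in shCtrl and 1505 and 1492 in shUSP9X, a log2 fold change of 0.25 ± 0.03 (adjusted p = 7.0e-08). This rise was not seen with the offset described below (-0.03, adjusted p = 0.391). The second Aldoa identifier had between 1 and 4 counts in a library and was not tested. Aldoc, the brain form, went the other way. It fell by 1.17 ± 0.13 on the log2 scale, from 17.4 and 18.5 CPM to 8.15 and 7.78, and made up 1.03% of the aldolase FPKM at most. Tpi1 (ENSMUSG00000023456, chr6:124810586-124814296, minus strand), which interconverts the 3-carbon sugars, had 984 and 943 CPM against 905 and 896. Its log2 fold change was -0.10 ± 0.03 (adjusted p = 0.00988), the call that was lost without either shUSP9X library.

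Pgk1 and Pkm, the enzymes that make ATP in the pathway, moved in opposite directions in the counts. Pgk1 (ENSMUSG00000062070, chrX:106187100-106203699, plus strand) had 1958 and 1948 CPM in shCtrl and 1656 and 1628 in shUSP9X, a log2 fold change of -0.25 ± 0.03 (adjusted p = 2.0e-08). Pkm (ENSMUSG00000032294, chr9:59656368-59679375, plus strand) had 2858 and 2883 against 3498 and 3470.1, a log2 fold change of 0.28 ± 0.03 (adjusted p = 6.6e-10). With the offset Pkm was at 0.08, beside a median of 0.07 over all genes. In both genes the distance between groups exceeded that between libraries of a group. The table gives 1 value for Pkm, so its M1 and M2 splice forms were not separated. The testis form Pgk2 and the liver form Pklr had no counts. Ldha (ENSMUSG00000063229, chr7:46841475-46855627, plus strand), which turns pyruvate into lactate, had 1913 and 1907 CPM against 1817 and 1793. Its log2 fold change was -0.08 ± 0.03 (adjusted p = 0.0138). Ldha made up between 97.3 and 97.4% of lactate dehydrogenase FPKM in every library, and Ldhb had -0.14 ± 0.08 (adjusted p = 0.143), and -0.44 (adjusted p = 4.3e-05) with the offset described below. Ldha has 13 pseudogenes of at least 90% identity in the annotation, Pkm 8, Aldoa 5, Pgk1 4 and Tpi1 2, so reads of these genes could be split by the counting.

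The other genes of the pathway were as divided. Of 32 listed, 19 were tested, of which 6 rose, 7 fell and 6 did not pass, with a median log2 fold change of 0.04. The shares lie near those of all genes tested (33.8% rose and 33.6% fell). Without the second shUSP9X library the median of these 19 was -0.00. Gapdh, which oxidises the 3-carbon sugar and is often used as a reference gene, rose. It had 4142 and 4421 CPM against 6175 and 6240.3, a log2 fold change of 0.54 ± 0.03 (adjusted p = 4.2e-15). With 170 pseudogenes of like sequence, its level is uncertain. Gpi1 (0.18 ± 0.03), which acts between hexokinase and phosphofructokinase, and Pgam1 (0.28 ± 0.03), a phosphoglycerate mutase, also rose, but neither passed with the offset described below (0.01, adjusted p = 0.804, and 0.03, adjusted p = 0.321). Eno1, the main enolase, had a log2 fold change of -0.08 ± 0.03 (adjusted p = 0.0227). Its call was lost with DESeq2 (adjusted p = 0.0679), with upper quartile scaling (0.192), on both FPKM scales (0.0533 and 0.0527) and without shCtrl replicate 2 (0.203), shUSP9X replicate 1 (0.113) or shUSP9X replicate 2 (0.388). With the offset Eno1 was at -0.32 (adjusted p = 4.1e-11). The neuronal enolase Eno2 fell by 1.39 ± 0.19, from 8.71 and 10.2 CPM to 3.74 and 3.44. At the study's cutoff 4 of these genes were lower (Aldoc, Eno2, Slc16a3 and Eno1b) and 1 was higher (Slc16a1), beside 18.7% lower and 10.8% higher of all genes. Eno1b shares near-identical sequence with Eno1 and is uncertain, and it is named after its value was seen.

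Of the tested genes of the pathway, the largest fall and the largest rise were both in lactate transporters. Slc16a3 (MCT4), which exports lactate and is known as a hypoxia-inducible gene, had 20.9 and 19.6 CPM in shCtrl and 5.97 and 4.69 in shUSP9X. Slc16a1 (MCT1), which carries lactate in either direction, had 169.8 and 168 against 323 and 338. The groups were far apart in both, in opposite directions. The log2 fold change was -1.91 ± 0.14 for Slc16a3 (adjusted p = 5.9e-12) and 0.97 ± 0.04 for Slc16a1 (adjusted p = 3.7e-17). Bsg, their chaperone, had 0.04 ± 0.04 (adjusted p = 0.341), and -0.23 (adjusted p = 7.2e-06) with the offset. It is named after its value was seen.

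**Figure D3:**
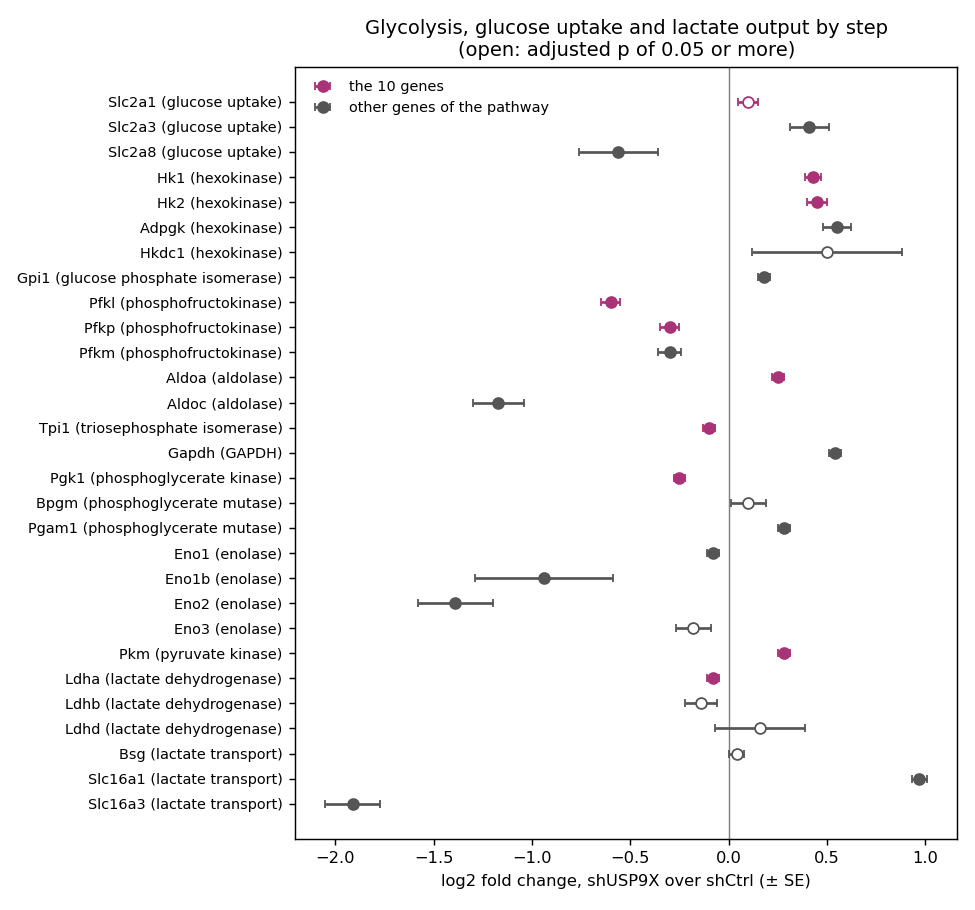
Log2 fold change of shUSP9X over shCtrl with its standard error (horizontal axis) for the tested genes of glucose uptake, glycolysis and lactate output, in pathway order from top to bottom. Filled points have an adjusted p under 0.05. Hexokinases lie to the right of 0, phosphofructokinases to the left, and Slc16a3 (-1.91) and Slc16a1 (0.97) at the ends.

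Genes that set the flow through the pathway were also mixed. Of 28 tested regulators and pyruvate-using genes, 11 rose and 9 fell, with a median of 0.06, again beside 33.8% and 33.6% of all genes. With the offset described below 14 rose and 8 fell, with a median of 0.13, beside 38.6% and 25.6% of all genes. Without the second shUSP9X library the median of the 28 was 0.05. Pdk1, a kinase that shuts pyruvate out of the mitochondrial pyruvate dehydrogenase reaction, fell by 1.66 ± 0.06 on the log2 scale, from 98.0 and 101 CPM to 31.7 and 31.0. Its relative Pdk4 rose by 0.60 ± 0.06. Pfkfb2, which makes the sugar phosphate that activates phosphofructokinase, fell by 0.86 ± 0.17. Pfkfb3, of the same family, rose by 0.24 ± 0.07 and is named after its value was seen. Pck2, the mitochondrial enzyme that makes phosphoenolpyruvate, fell by 0.89 ± 0.06, and Mlxipl, a glucose-sensing transcription factor, had a log2 fold change of -1.40 ± 0.21. Pdp1, a phosphatase that opposes Pdk1, fell by 0.59 ± 0.10 in counts and was higher by 0.49 with the offset. Dld, also of this list, went from -0.36 ± 0.05 in counts to 0.32 with the offset. It is named after its value was seen.

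The transcription factors named above differed as well. Epas1 went from 24.0 and 25.7 CPM to 7.69 and 8.61, a log2 fold change of -1.61 ± 0.12. Hif1a had -0.93 ± 0.04, which was -0.11 with the offset. Myc rose by 0.97 ± 0.05, from 109 and 114 to 219.8 and 218 CPM, and Arnt, the partner of both HIF proteins, had -0.01 ± 0.06 (adjusted p = 0.923). Among hypoxia-inducible genes outside glycolysis, 14 of 18 tested fell, with a median of -0.70, beside 33.6% and a median of 0.00 over all genes. With the offset 15 of the 18 fell, with a median of -0.56, beside 25.6% of all genes. Without the second shUSP9X library the median was -0.67 over the 19 genes of this list then tested. Those that fell include Bnip3 (-2.19 ± 0.13), Ndrg1 (-1.41 ± 0.05) and Vegfa (-0.70 ± 0.05). The 10 glycolysis genes, with a median of 0.01 in counts and -0.16 with the offset, and this list were not tested against each other.

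Over the whole table, transcripts poor in G and C had lower fold changes than the others, and so had long transcripts. The rank correlation with fold change was 0.45 for GC content and -0.33 for length. With the genes tested ranked by GC content and cut into 10 equal classes, class 1, the poorest, had a median of -0.88 on the log2 scale, and classes 8 and 9 had 0.25. The 10 genes lie in classes 5 to 9, between 48.9% GC for Pfkp and 57.7% for Pkm. The classes that hold them had medians from 0.06 to 0.25. A fit with an offset for each library's trend on GC content and length was therefore set beside the first one. By it 25.6% of all genes fell and 38.6% rose, with a median of 0.07 over all genes. Of the 10 genes, 3 rose and 5 fell. Hk1 (0.36 ± 0.04), Hk2 (0.47 ± 0.05), Pfkl (-0.70 ± 0.05) and Pfkp (-0.27 ± 0.05) moved little. Pgk1 (-0.44 ± 0.02), Tpi1 (-0.37 ± 0.03) and Ldha (-0.31 ± 0.02) fell further. Their transcripts have 1825, 1607 and 1815 bases, beside a median of 3196 over the genes tested. The parts of GC content and of length in these shifts were not separated. Aldoa went from 0.25 to -0.03 ± 0.03 (adjusted p = 0.391) and so lost its direction, and Slc2a1 had -0.06 ± 0.04 (adjusted p = 0.282). Pkm had 0.08 ± 0.02 (adjusted p = 0.0059), near the median of all genes, and with a robust form of the trend, tried after these values had been seen, 0.05 (adjusted p = 0.0656). Among the other pathway genes, 4 rose and 10 fell with the offset, with a median of -0.23, and Gapdh (0.25 ± 0.02), Slc16a1 (1.53 ± 0.04) and Slc16a3 (-1.98 ± 0.14) kept their direction. The offset also drew Usp9x from -3.85 to -2.09, so it also shrank the measured knock-down. Whether the trends on GC content and length arose in the cells or in the libraries was not tested.

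**Figure D4:**
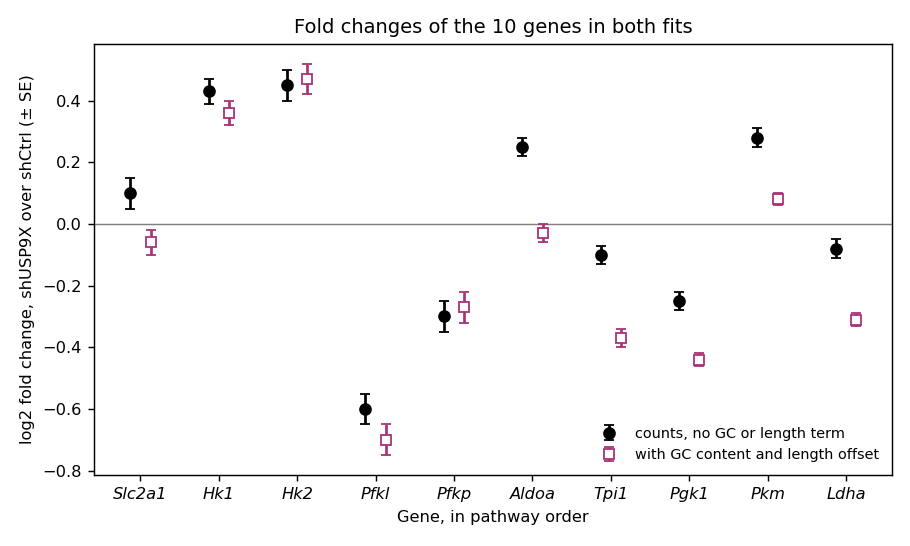
Log2 fold change of shUSP9X over shCtrl with its standard error (vertical axis) for the 10 genes, in pathway order. Filled circles are from the counts and open squares from the fit with the GC content and length offset. Hk1 and Hk2 stay above 0 and Pfkl, Pfkp, Tpi1, Pgk1 and Ldha below 0 in both, while Aldoa goes from 0.25 to -0.03.

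**Figure D5:**
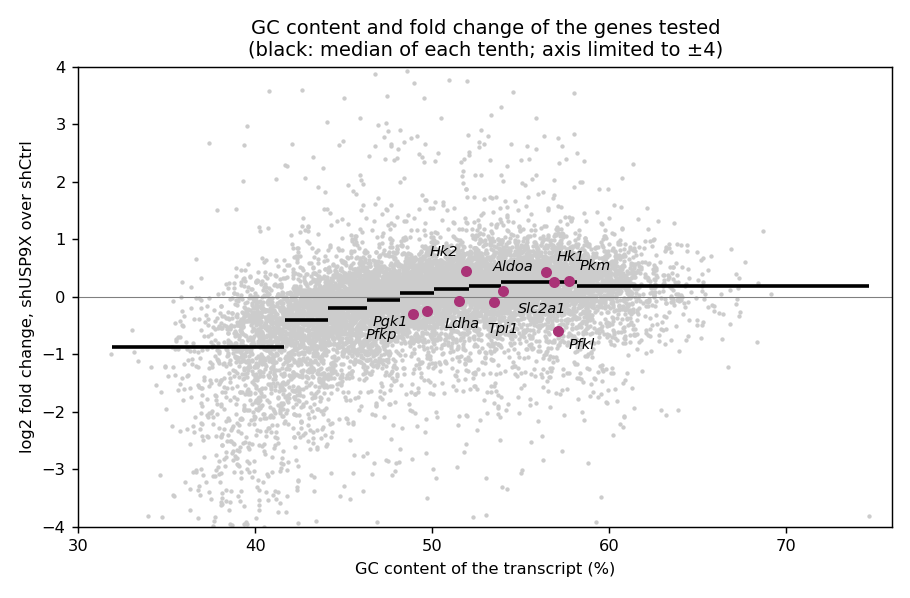
GC content of the transcript in percent (horizontal axis) and log2 fold change of shUSP9X over shCtrl (vertical axis, limited to ±4) for the genes tested (grey), with the 10 genes in purple. Black lines are medians of 10 equal classes of genes by GC content and run from -0.88 in class 1 to 0.25 in classes 8 and 9.

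The promoters of the 10 genes were searched for letters at which HIF and MYC are known to bind. The GC box was searched as well, and not as a site of HIF or MYC. The hypoxia response core ACGTG or GCGTG, on either strand, occurred in the 250 bases before a start site of 9 of the 10 genes, all but Tpi1, against 41.5% of 27025 genes in the RefSeq promoter table (GRCm38.p6). The E-box CACGTG, which contains ACGTG, occurred in Ldha alone among the 10, against 6.86% of genes. The GC box GGGCGG occurred in 8 of the 10, against 35.4% of genes. The genes compared were not matched to the 10 for expression, promoter GC content or number of start sites. These shares therefore do not show an enrichment. Hk2, which rose, and Pgk1, which fell, are shown since both carry the core ACGTG and moved in opposite directions. The capitals mark the core on either strand (ACGTG or its complement CACGT). The Hk2 window lies at chr6:82774455-82774704 on the minus strand and the Pgk1 window at chrX:106186850-106187099 on the plus strand (GRCm38.p6), both just upstream of the gene and outside its annotated exons.
Hk2: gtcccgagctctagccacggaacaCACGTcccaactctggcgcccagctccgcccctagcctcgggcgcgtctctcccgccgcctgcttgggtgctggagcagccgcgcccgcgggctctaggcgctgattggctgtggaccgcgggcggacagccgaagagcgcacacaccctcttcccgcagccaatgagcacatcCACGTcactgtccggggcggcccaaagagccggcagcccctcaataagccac
Pgk1: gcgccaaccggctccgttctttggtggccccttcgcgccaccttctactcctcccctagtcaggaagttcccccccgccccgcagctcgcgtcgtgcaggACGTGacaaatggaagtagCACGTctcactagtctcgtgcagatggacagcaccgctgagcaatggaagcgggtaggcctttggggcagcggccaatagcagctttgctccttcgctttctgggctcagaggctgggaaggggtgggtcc

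Each of the 2 windows holds the core 2 times. A match of letters is a description of the window and does not show that a factor binds there.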

How the data were processed

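Total RNA of 4 libraries was enriched for poly(A) RNA and sequenced. Per the labels, the submitters' processing notes name fastp 0.18.0, Bowtie2 2.2.8, HISAT2, RSEM and StringTie 1.3.1, and the paper names the mouse genome GRCm38. The table the authors deposited gives, for each library on its own, estimated counts without normalization and FPKM values, which they scaled for transcript length and depth. Some count values were not whole, such as 2163.28 for Pfkp in the first shCtrl library, so counts were rounded.

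After filterByExpr and TMM scaling, 11448 genes were tested in edgeR 4.0.16 under R 4.3.3 by its quasi-likelihood test. No replicate block was used, and p-values were adjusted by Benjamini-Hochberg over these genes. The standard error is the log2 fold change divided by the square root of F. CPM values use the TMM-scaled library sizes. The common biological coefficient of variation was 0.0352. With 2 libraries against 2, an exact permutation test cannot go below a p of 0.333, so none was run. Replicates differed by more than counting noise (chi-square per gene 3.41 in shCtrl and 2.23 in shUSP9X), so none was treated as a library deposited 2 times. This does not show that they came from separate cultures. Molecular identifiers are not described, so errors from depth cover counting error only.

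Alternatives were DESeq2 1.42.0, other scalings and filters, limma 3.58.1 on FPKM values on a log2 scale (pseudocount 1 or 0.1, genes with a mean FPKM of 1 or more), a replicate block, an offset that takes out, library by library, a loess fit (span 0.3) against GC content and length from the GENCODE annotation of GRCm38, and each library left out. The offset with a robust loess was added after the results of the first form had been seen. The medians of regulators and hypoxia-inducible genes without the second shUSP9X library were also added after the data had been seen. Named genes are the 10, Usp9x, their isozymes, fixed pathway genes, and list genes with an adjusted p under 0.05, a fold above 1.5 and a mean of at least 5 CPM in a group. The members and lists were chosen with earlier results of these data known. Some genes of the lists are not reported here. The procedures were tested on simulated data.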

Additional observations from a re-analysis of the deposited data

How the results depend on the processing

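For the 10 genes, 148 of 160 log2 fold changes under the alternatives stayed on their side of the threshold with no called direction reversed, 7 lost their call, 2 gained one and 3, all of Aldoa, reversed. Slc2a1, not called at 0.10, changed sign to -0.06, -0.06 and -0.08 in the 3 fits with the offset and was not called there either. Aldoa reversed to -0.03 with the GC content and length offset, to -0.03 with that offset and the replicate block and to -0.04 with the robust loess. Pdp1 was at 0.49, 0.49 and 0.25 in the same 3 fits, and Gpi1 at -0.01 with the robust loess. The median of the 10 was 0.04 with upper quartile scaling, -0.02 with library size only, -0.03 on log2(FPKM + 1) and on log2(FPKM + 0.1), -0.16 with the offset with or without the block, and -0.17 with the robust loess, against 0.01. Genes of the 10 that rose numbered 2 with the robust loess, which was chosen after the data had been seen and in which Pkm lost its call. Genes that fell numbered 3 with upper quartile scaling, where Tpi1 (-0.06, adjusted p = 0.0956) and Ldha (-0.05, adjusted p = 0.163) did not pass and Slc2a1 (0.13, adjusted p = 0.0199) did. Pfkl missed the fold of 1.5 with upper quartile scaling and on both FPKM scales, leaving 0 genes lower at the study's cutoff. The other pathway genes that fell numbered 4 with DESeq2. With a library left out, between 3 and 5 of the 10 fell, between 4 and 5 rose (Slc2a1 passed without shCtrl replicate 2, at an adjusted p of 0.0497), between 0 and 1 were lower at the study's cutoff (0 without shCtrl replicate 1, where Pfkl was at -0.58), and between 4 and 6 of the other pathway genes fell. The cause of these changes was not tested.

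The replicate numbers are shared between the groups, but the libraries with the same number did not deviate together (correlation of deviations from the group means -0.05), so the numbers were not taken as pairs. With the replicate block 5 of the 10 fell and 4 rose, as without it, and over all genes 3810 fell and 3855 rose, against 3843 and 3864.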
